A study of Mus musculus with 16 samples.

Results

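Expression of 10 known androgen-responsive genes was examined by RNA-seq in mouse seminal vesicles (SV) at week 5, at puberty. The genes were chosen by name as established targets of androgen signalling: Fkbp5, Sgk1, Tsc22d3, Zbtb16, Ell2, Eaf2, Azgp1, Tmprss2, Steap4 and Ndrg1. They are 10 of the 31274 genes in the deposited table, and all 10 passed the filter on low values. Diethylstilboestrol (DES) is a synthetic oestrogen, and αERKO mice lack oestrogen receptor α (ERα), encoded by Esr1, in the whole body. C57BL/6 male pups were injected under the skin on each of days 1–5 with 2 µg of DES in corn oil (WT-DES and αERKO-DES) or with the oil alone (WT-veh and αERKO-veh), with 4 samples in each of the 4 groups. WT litters came from purchased pregnant females and αERKO mice from crosses of heterozygous animals, so that genotype cannot be told apart from the source of the litters. RNA is described as coming from 4 individual mice per group, but from 3 pools of mice for WT-DES, although 4 WT-DES samples are listed, so the spread within WT-DES may be a spread between pools. Where samples do not come from separate mice, the p-values cover only the spread between these samples.

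Steroid hormone receptors are transcription factors held ready for their ligands by HSP90 and its co-chaperones. In androgen target tissues, testosterone and dihydrotestosterone act on genes through androgen response elements, inverted repeats of a hexamer close to AGAACA with a spacer of 3 bases. In the SV, androgens drive growth, branching and the synthesis of secretory proteins. The glucocorticoid receptor recognizes the same elements, and Fkbp5, Sgk1, Tsc22d3 and Zbtb16 are also well known as glucocorticoid-induced genes.

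The hexamer was searched in the promoters of the genes, taken from RefSeq (GRCm38.p6) as the 250 bases before to 50 bases after each annotated start. Of the 10 genes, 8 matched entries in the promoter table, with 17 starts between them, and Zbtb16 and Ndrg1 had no entry. AGAACA or its reverse complement TGTTCT was found for 3 of the 8 genes and at 5 of the 17 starts (29.4%). Among all 32851 promoters the share was 19.0% (6233), and no share over all genes was computed. Sgk1 has the most starts of the 8 genes and most of the matching ones (windows from chr10:21881934, 21991973 and 21993640). The share at the 17 starts thus rests mainly on Sgk1. The full element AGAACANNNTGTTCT, which is its own reverse complement and so holds a hexamer on each strand, was found in 3 of 32851 promoters, and 1 of the 3 belongs to Sgk1. The sequences shown are from starts with a match, and the other matching Sgk1 starts are not shown. For Sgk1 the start with the full element is shown, chr10:21993640-21993889, and for Tsc22d3 chrX:140600523-140600772, each as the 250 bases before the start. For Azgp1 30 bases around a match after the start are shown, chr5:137981523-137981552. The Sgk1 and Azgp1 sequences are on the plus strand and the Tsc22d3 sequence is on the minus strand, all are written 5′ to 3′ on the coding strand, and capitals mark the hexamers.
Sgk1: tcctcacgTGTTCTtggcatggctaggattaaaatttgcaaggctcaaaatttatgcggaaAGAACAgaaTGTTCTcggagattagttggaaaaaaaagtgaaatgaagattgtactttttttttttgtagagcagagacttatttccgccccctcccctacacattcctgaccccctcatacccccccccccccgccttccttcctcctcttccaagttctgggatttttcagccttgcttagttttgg
Tsc22d3: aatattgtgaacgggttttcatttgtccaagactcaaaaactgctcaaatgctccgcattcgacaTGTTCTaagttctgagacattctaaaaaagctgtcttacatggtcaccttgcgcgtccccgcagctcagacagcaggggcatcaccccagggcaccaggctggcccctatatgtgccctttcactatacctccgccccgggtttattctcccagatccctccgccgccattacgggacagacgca
Azgp1: tcctgtgtagacTGTTCTcccgggcactac
In the Sgk1 promoter shown, the hexamers of the full element began at positions -189 and -180 from the start. A further TGTTCT began at -242. The match of Tsc22d3 began at -185, and that of Azgp1 at 15, inside the transcript. Matches are letters in these windows, not measured binding, and response elements of these genes may lie in introns or far enhancers that were not searched. Of the 3 genes with a match, Sgk1 and Azgp1 were called lower in WT-DES SV and Tsc22d3 was not called. Of the 5 genes without one, Eaf2, Ell2 and Fkbp5 were called lower, Steap4 was called higher and Tmprss2 was not called.

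Expression was given as FPKM (fragments scaled to transcript length and to the size of the library), which can be compared between genes. The number of reads per sample is not known from FPKM, and the sum of FPKM over all genes was 375207–437619 in the WT-DES samples and 479045–652708 in the others. As a check of the genotype label, Esr1 was 2.81–4.55 FPKM in WT-veh and 8.74–19.6 in WT-DES, against 1.30–1.75 in αERKO-veh and 0.91–1.64 in αERKO-DES. Epithelial markers (Epcam, Cdh1, Krt8, Krt18, Krt19 and Cldn4) and 8 SV secretory genes were expressed in all 16 samples. WT-DES sample 1 stood apart from the other WT-DES samples, with a mean level of 5 smooth muscle markers of 9.13 on the log2(FPKM + 1) scale against 6.94–7.63. Skeletal muscle markers were high in WT-veh sample 4 (6.53) and in αERKO-veh samples 2, 3 and 4 (6.42–7.29), with αERKO-veh sample 1 at 3.89 and the remaining WT-veh samples at 2.07–3.45.

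**Figure D1:**
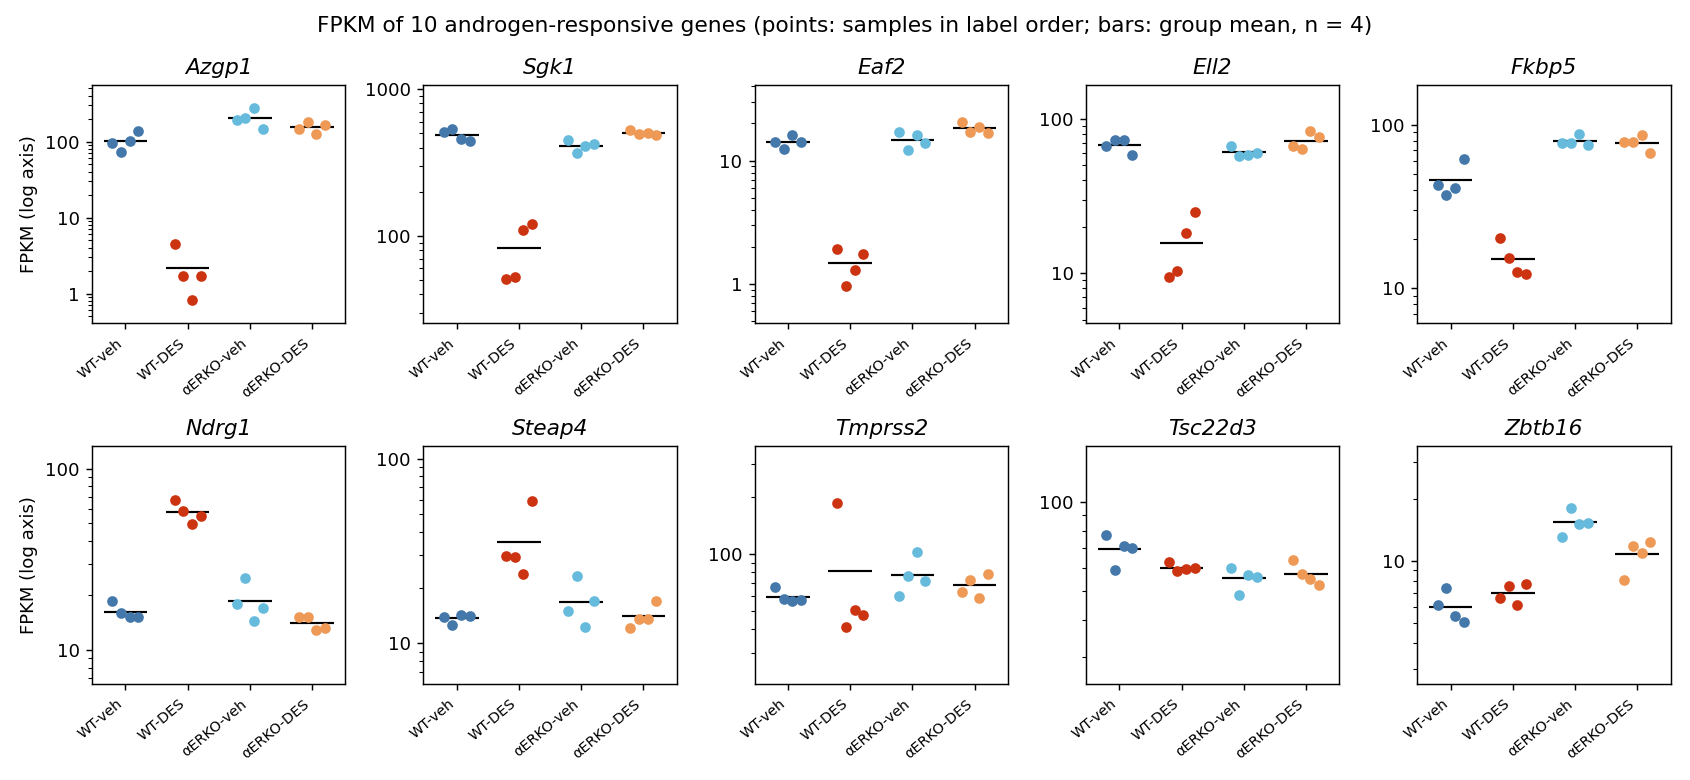
FPKM (log axis) of the 10 androgen-responsive genes in each of the 16 samples, with a bar at each group mean (n = 4). The WT-DES points of Azgp1, Sgk1, Eaf2, Ell2 and Fkbp5 lie below all other samples, those of Ndrg1 and Steap4 lie above all others, and a single WT-DES sample is high for Tmprss2 (187 FPKM).

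Neonatal DES in WT mice was followed by lower expression of 5 of the 10 genes and higher expression of 2. A gene was called where the limma test gave an adjusted p of at most 0.05, group means differed at least 1.5-fold and a group mean exceeded 1 FPKM. The 7 of 10 called genes stood beside 52.7% of all 15988 tested genes in this comparison, 23.9% lower and 28.9% higher. The groups did not overlap for 7 of the 10 genes, beside 66.7% of all tested genes. The median log2 change of the 10 genes was -0.87 against -0.01 over all tested genes, and -0.45 against 0.38 after rescaling without the 20 most abundant genes, where Zbtb16 was also called higher. Azgp1 fell most, and Sgk1, Eaf2, Ell2 and Fkbp5 also fell, while Ndrg1 and Steap4 rose. Sgk1 and Eaf2 had near-equal log2 changes (-2.64 and -2.63), and their order depends on the scale, since the ratio of means was 0.17 for Sgk1 and 0.104 for Eaf2. Tmprss2, Zbtb16 and Tsc22d3 were not called. In a whole tissue, fewer cells of a type and less RNA per cell cannot be told apart, and this holds for all values here.

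Fkbp5 encodes an immunophilin co-chaperone of HSP90 in steroid receptor complexes (chr17:28399094-28517527 in GRCm38, minus strand). The WT-veh samples were at 42.7, 37.4, 41.1 and 62.2 FPKM and the WT-DES samples at 20.3, 15.5, 12.6 and 12.2. The αERKO-veh samples were at 78.1, 77.6, 87.9 and 75.2 FPKM and the αERKO-DES samples at 78.8, 78.3, 86.5 and 67.8. All WT-DES samples were below, and all αERKO samples above, every WT-veh sample, and the αERKO groups overlapped. In WT-DES SV it fell by 1.53 on the log2(FPKM + 1) scale (SE 0.16, limma adjusted p = 5.77e-07), from 45.8 ± 11.1 to 15.2 ± 3.74 FPKM (mean ± SD, n = 4).

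Sgk1, a kinase that regulates ion channels and transporters (chr10:21882184-21999903, plus strand), had the highest mean level of the 10 genes in every group. It was at 513, 535, 458 and 444 FPKM in WT-veh and at 50.6, 52.5, 109.6 and 119.7 in WT-DES. The αERKO-veh samples were at 449.8, 369, 409 and 421 FPKM and the αERKO-DES samples at 530.3, 498, 504 and 485. WT-DES samples 1 and 2 were lower than samples 3 and 4, and all 4 were far below every sample of the other groups. The fall in WT-DES was 2.64 on the log2 scale (CI -3.12 to -2.17, 95%, limma adjusted p = 8.65e-08). By mean FPKM among tested genes, Sgk1 went from rank 122 in WT-veh to rank 784 in WT-DES.

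Tsc22d3 encodes GILZ, a leucine zipper protein that restrains inflammatory signalling (chrX:140539528-140600659, minus strand). It changed little, with 59.0–77.4 FPKM in the WT-veh samples against 58.4–62.5 in WT-DES, and 48.5–59.9 in the αERKO-veh samples against 52.3–63.7 in αERKO-DES. All 4 ranges overlapped. The log2 change in WT-DES was -0.20 (95% CI -0.38 to -0.02, limma adjusted p = 0.0473), with a ratio of means of 0.866 that is under the fold required for a call. Its direction depended on the scaling, with 0.32 after quantile normalization and 0.23 after rescaling without the 20 most abundant genes.

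Zbtb16 encodes PLZF, a zinc finger transcriptional repressor (chr9:48654297-48836222, minus strand), and had the lowest level of the 10 genes in WT-veh. Its FPKM was 6.07, 7.39, 5.41 and 5.05 in WT-veh and 6.61, 7.53, 6.10 and 7.74 in WT-DES. The αERKO-veh samples were at 12.99, 18.04, 15.1 and 15.2 FPKM and the αERKO-DES samples at 8.04, 11.8, 10.9 and 12.4. The WT groups overlapped, and every αERKO sample lay above every WT sample. The log2 change in WT-DES was 0.20 (95% CI -0.09 to 0.49, limma adjusted p = 0.189), and it was -0.11 after quantile normalization and -0.01 after correction for transcript length, but 0.58 and called after rescaling without the 20 most abundant genes.

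Ell2 and Eaf2 act together in transcription elongation by RNA polymerase II: Ell2 is an elongation factor and Eaf2 binds and stimulates proteins of the ELL family. Ell2 (chr13:75706757-75772364, plus strand) was at 66.7, 73.1, 72.8 and 57.9 FPKM in WT-veh against 9.48, 10.3, 18.1 and 25.0 in WT-DES. The αERKO-veh samples were at 66.8, 57.8, 58.3 and 60.4 FPKM and the αERKO-DES samples at 66.6, 63.3, 82.9 and 76.0. As with Sgk1, WT-DES samples 1 and 2 were lower than samples 3 and 4, and the other 3 groups overlapped each other. Eaf2 (chr16:36792884-36875003, minus strand) was at 14.2, 12.5, 16.1 and 14.2 FPKM in WT-veh and fell to 1.93, 0.96, 1.29 and 1.75 in WT-DES. It was at 12.2–17.0 in αERKO-veh and 16.8–20.5 in αERKO-DES. In WT-DES, Eaf2 fell by 2.63 (SE 0.13, limma adjusted p = 7.83e-10) and Ell2 fell by 2.13 (SE 0.22, limma adjusted p = 5.62e-07) on the log2(FPKM + 1) scale. Because of the added 1, the log2 change of Eaf2 understates the ratio of its group means, 0.104.

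Azgp1 encodes a secreted glycoprotein with a fold like that of MHC class I (chr5:137981520-137990233, plus strand). Its FPKM was 94.4, 72.4, 101 and 137 in WT-veh and 4.45, 1.70, 0.81 and 1.69 in WT-DES. The αERKO-veh samples were at 191, 203, 278 and 148 FPKM and the αERKO-DES samples at 146, 181, 126 and 165. The WT-DES samples were all far below every other sample, with sample 1 the highest of them, and the αERKO-veh samples were all above the WT-veh samples. The fall in WT-DES was 5.10 on the log2 scale (SE 0.28, limma adjusted p = 1.65e-09), and its rank by mean FPKM went from 1022 to 13834.5 among 15988 tested genes.

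Tmprss2, a transmembrane serine protease of prostate epithelium (chr16:97564682-97611195, minus strand), was at 67.1, 57.7, 56.3 and 57.2 FPKM in WT-veh and at 187, 41.1, 50.5 and 47.9 in WT-DES. It was at 59.8–103 in αERKO-veh and 58.3–78.6 in αERKO-DES. WT-DES sample 1 was the highest of the 16 samples and the other 3 WT-DES samples were the lowest of the 16. The log2 change was 0.14 (95% CI -0.59 to 0.88, limma adjusted p = 0.713), so that a change of either sign is within the interval. Without WT-DES sample 1 it was -0.35 (limma adjusted p = 0.0457) and remained under the fold required for a call.

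Steap4, a metalloreductase of the plasma membrane (chr5:7960457-7982213, plus strand), was at 13.9, 12.6, 14.2 and 14.1 FPKM in WT-veh and at 29.9, 29.2, 23.7 and 58.7 in WT-DES. It was at 12.3–23.2 in αERKO-veh and 12.03–17.0 in αERKO-DES. Every WT-DES sample was above every other sample, and sample 4 was the highest of them. The rise was 1.22 on the log2 scale (SE 0.23, limma adjusted p = 0.000178).

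Ndrg1, a cytosolic protein induced by hypoxia and differentiation (chr15:66929318-66969640, minus strand), was at 18.6, 16.01, 15.2 and 15.2 FPKM in WT-veh and at 67.1, 58.4, 49.7 and 54.8 in WT-DES. It was at 14.4–25.0 in αERKO-veh and 12.97–15.2 in αERKO-DES. The WT-DES samples were all well above the 12 other samples. The rise was 1.76 on the log2 scale (SE 0.13, limma adjusted p = 2.89e-08).

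**Figure D2:**
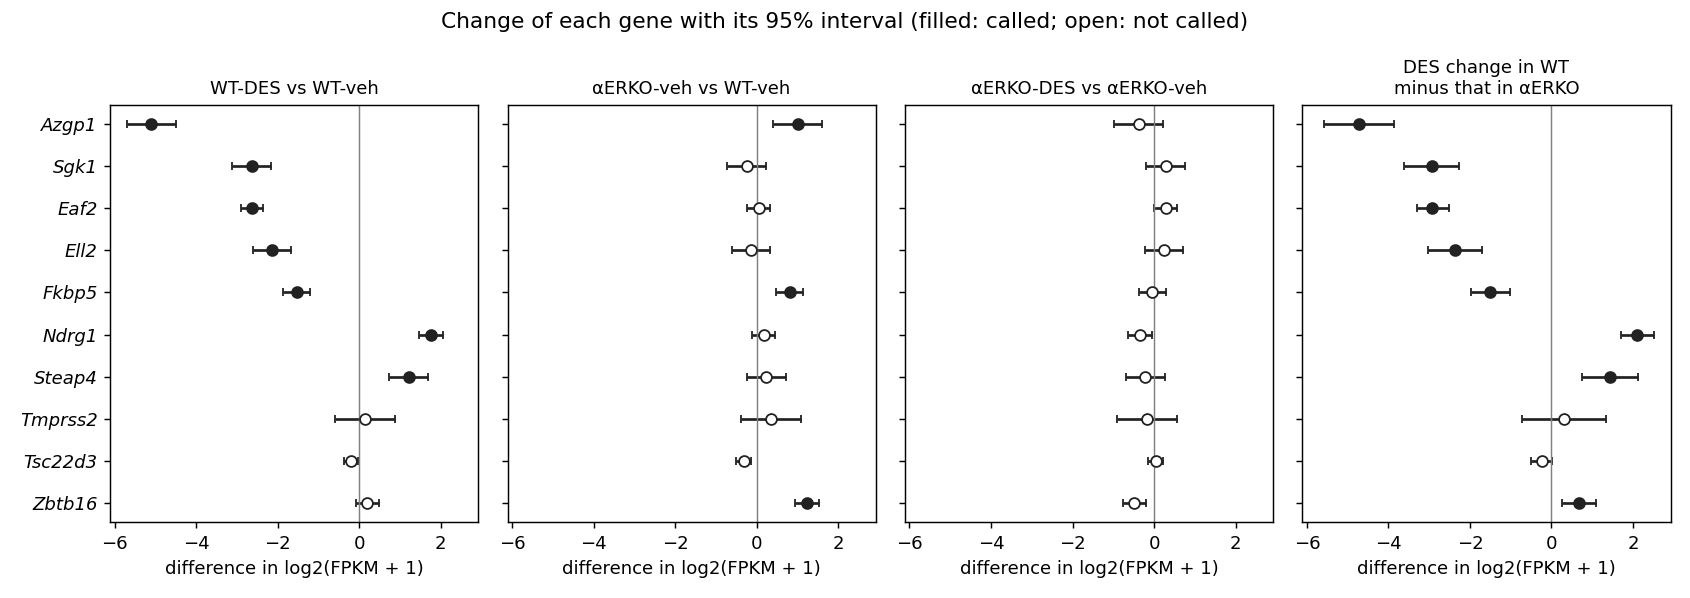
Difference in log2(FPKM + 1) of each of the 10 genes with its 95% interval in 3 comparisons and in the difference between genotypes, with called genes filled. In WT-DES versus WT-veh 7 genes are filled, in αERKO-veh versus WT-veh 3, in αERKO-DES versus αERKO-veh 0, and in the last panel 8.

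The levels can be ordered, since FPKM is per length. In WT-veh, Sgk1 (488 FPKM on average) was above Azgp1 (101), followed by Tsc22d3 (69.3), Ell2 (67.6), Tmprss2 (59.6) and Fkbp5 (45.8), and then Ndrg1 (16.2), Eaf2 (14.2), Steap4 (13.7) and Zbtb16 (5.98). Neighbours from Azgp1 to Fkbp5 overlapped in their samples, as did neighbours from Ndrg1 to Steap4. In WT-DES, Sgk1 (83.1) and Tmprss2 (81.6, or 41.1–50.5 without sample 1) were followed by Tsc22d3 (60.0), Ndrg1 (57.5) and Steap4 (35.4), and Azgp1 (2.16) and Eaf2 (1.48) were the lowest.

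**Figure D3:**
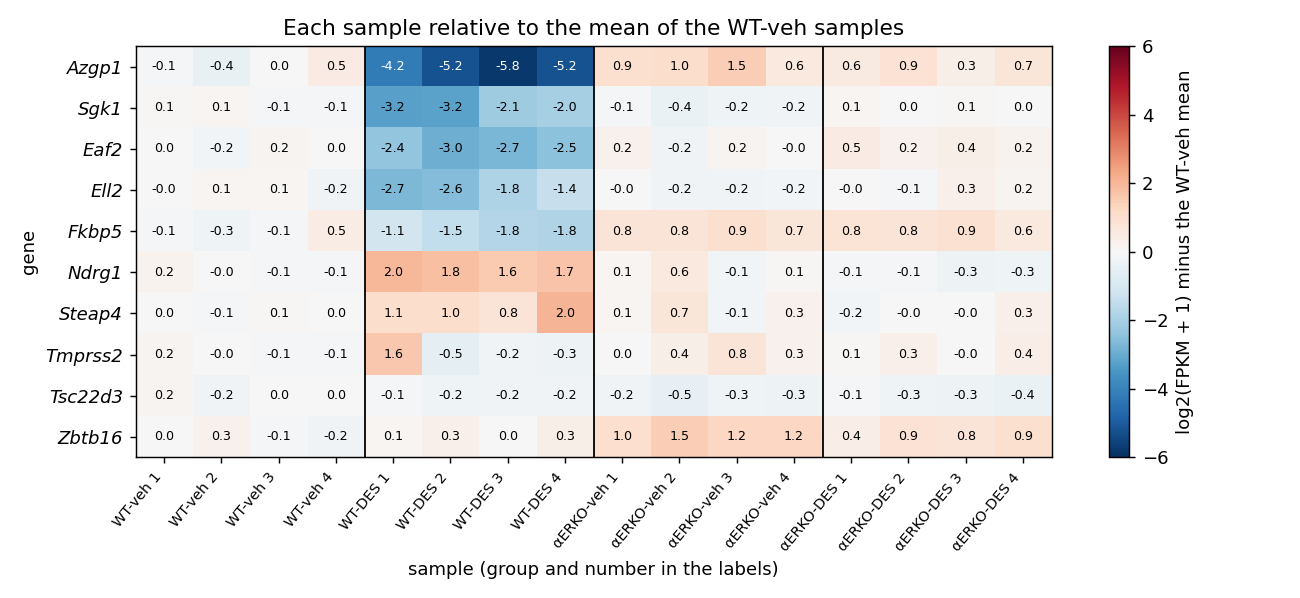
Level of each of the 10 genes in each of the 16 samples, as log2(FPKM + 1) minus the mean of the 4 WT-veh samples, written in each cell and coloured from -6 (blue) to 6 (red). The WT-DES columns are blue for Azgp1 (down to -5.8), Sgk1, Eaf2, Ell2 and Fkbp5 and red for Ndrg1 and Steap4, whereas Zbtb16, Fkbp5 and Azgp1 are red in the αERKO columns.

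The WT-DES samples differed among themselves in ways that were not shared by all genes. Sgk1 and Ell2 were lower in samples 1 and 2 than in 3 and 4. Azgp1, Fkbp5, Eaf2, Ndrg1, Tsc22d3 and Tmprss2 were highest in sample 1, and Steap4 and Zbtb16 in sample 4. Cell type markers moved in the same comparison. On the mean log2(FPKM + 1) scale, 6 epithelial markers were at 6.97–7.37 in WT-DES and 7.61–7.77 in WT-veh (4 of 6 called lower), and 8 SV secretory genes were at 7.63–9.61 and 12.47–12.70 (8 of 8 lower). The 5 genes listed as anterior prostate markers (Pbsn, Msmb, Tgm4, Sbp and Spink3) were at 3.29–6.52 and 8.35–11.17 (5 of 5 lower). Here and below that label is only the name of the list, and whether these genes mark anterior prostate in these samples was not tested. Within WT-veh, Sbp ranged from 2.59 to 4368 FPKM and Msmb from 94.8 to 1586. Spink3 (3056–3229), Pbsn (2010–2179) and Tgm4 (1453–1856) varied less. The 5 smooth muscle markers were at 6.94–9.13 and 8.79–9.11 (4 of 5 lower). The 11 leukocyte markers were at 3.35–4.62 and 2.35–2.70 (10 of 11 higher and 1 lower), the 6 fibroblast markers at 7.94–8.04 and 6.32–6.60 (6 of 6 higher), and the 5 endothelial markers at 4.24–4.92 and 3.07–3.35 (5 of 5 higher). The 6 adipose markers were at 5.77–6.94 and 3.59–5.76 (4 of 6 higher), and were highest in WT-DES sample 4, the sample with the highest Steap4 (58.7 FPKM). The 4 basal epithelial markers were at 5.65–6.63 and 5.19–5.53 (2 of 4 higher), and the 10 skeletal muscle markers at 1.63–2.69 and 2.07–6.53 (2 of 10 lower). Apart from skeletal muscle markers, no marker of these lists was at 0 in any sample. The part of these shifts in the changes of the 10 genes was not tested. Without WT-DES sample 1 the same count of genes was called, 5 lower and 2 higher.

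**Figure D4:**
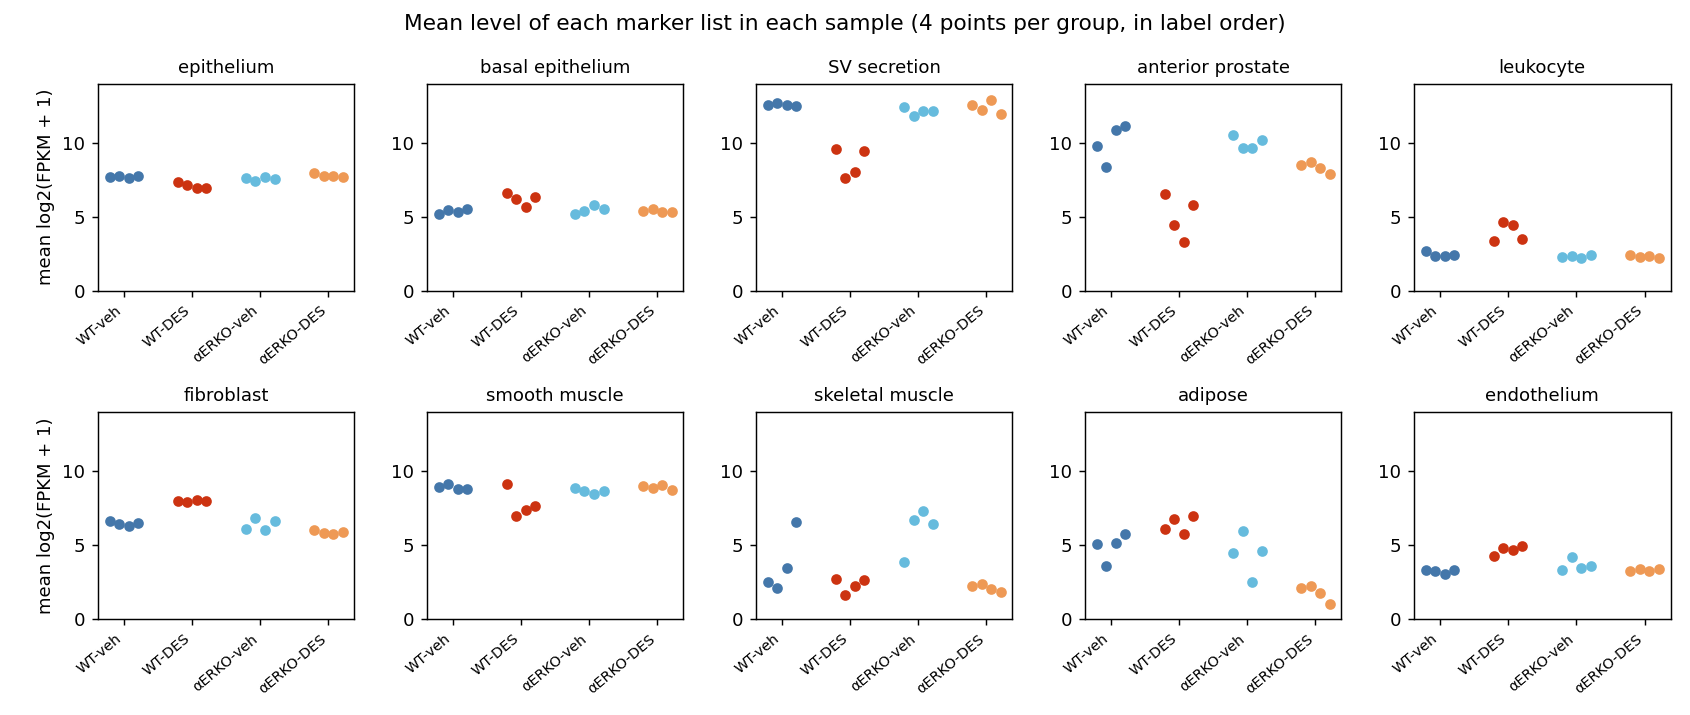
Mean log2(FPKM + 1) of 10 lists of cell type markers in each of the 16 samples. Points in WT-DES are lower for epithelium, SV secretion and anterior prostate and higher for basal epithelium, leukocytes, fibroblasts, adipose and endothelium than in WT-veh, and skeletal muscle markers are at 3.89–7.29 in αERKO-veh against 1.83–2.36 in αERKO-DES.

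Loss of ERα without DES was followed by higher expression of 3 of the 10 genes, beside 7.12% of all tested genes called in this comparison and 4.50% called higher. Zbtb16 rose by 1.23 on the log2 scale (SE 0.14, limma adjusted p = 0.000642), from 5.98 ± 1.03 to 15.3 ± 2.07 FPKM (n = 4). Fkbp5 rose by 0.81 (SE 0.16, limma adjusted p = 0.00653), to 79.7 ± 5.6 FPKM. Azgp1 rose by 1.01 (SE 0.28, limma adjusted p = 0.0197), to 205 ± 54.1 FPKM, and this call was lost without αERKO-veh sample 2 (limma adjusted p = 0.0574) or sample 3 (limma adjusted p = 0.053). For these 3 genes the groups did not overlap, beside 29.7% of all tested genes. Tsc22d3 differed by a smaller amount, -0.32 on the log2 scale (limma adjusted p = 0.0166), at a ratio of means of 0.797, which is under the fold for a call. The changes of the other 6 genes lay between -0.24 for Sgk1 and 0.35 for Tmprss2, with limma adjusted p-values from 0.39 to 0.832.

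Of 10 skeletal muscle markers, 4 were called higher in αERKO-veh than in WT-veh, at 3.89–7.29 against 2.07–6.53 on the mean log2 scale, with WT-veh sample 4 the highest of its group. Of 5 endothelial markers, 2 were called higher, at 3.33–4.22 against 3.07–3.35. In WT-veh sample 4, Zbtb16 was at 5.05 FPKM, the lowest of its group, and Fkbp5 (62.2) and Azgp1 (137) were the highest of theirs. The same sample had the highest anterior prostate (11.17), adipose (5.76), epithelial (7.77) and basal epithelial (5.53) marker levels of its group. Its SV secretory level (12.47) was the lowest. Without that sample the changes in αERKO-veh were 1.16 for Zbtb16, 0.96 for Fkbp5 and 1.17 for Azgp1, and all 3 were still called. In αERKO-DES, Zbtb16 (log2 change 0.75, limma adjusted p = 0.00599) and Fkbp5 (0.77, limma adjusted p = 0.0111) were also called higher than in WT-veh, as 2 of the 10 genes, beside 3.18% of all tested genes and 1.21% higher. Both comparisons use the same WT-veh samples. Azgp1 was not called there (0.63, limma adjusted p = 0.17). In αERKO-DES against WT-veh, adipose markers were at 1.02–2.27 against 3.59–5.76 (5 of 6 called lower), fibroblast markers at 5.76–6.04 against 6.32–6.60 (3 of 6 called lower) and skeletal muscle markers at 1.83–2.36 against 2.07–6.53 (0 of 10 called). The part of these markers in the changes of the 10 genes in both comparisons was not tested.

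After DES in αERKO mice, limma called 0 of the 10 genes, beside 1.49% of all tested genes. This background of 239 genes depended on the settings, with 5 genes after quantile normalization, 28 in a fit of only the groups compared and 1119 with sample weights, and 2 at an adjusted p of at most 0.01. Before adjustment, 3 genes were under 0.05 in the limma test, with log2 changes of -0.48 for Zbtb16 (limma adjusted p = 0.0616), -0.35 for Ndrg1 (limma adjusted p = 0.131) and 0.29 for Eaf2 (limma adjusted p = 0.183). The groups did not overlap for Zbtb16 (8.04–12.4 against 12.99–18.04 FPKM) and Sgk1 (485–530.3 against 369–449.8), 2 of 10 genes beside 13.0% of all tested genes. For the 7 genes called in WT, the 95% intervals of the change in αERKO were -0.98 to 0.22 for Azgp1, -0.19 to 0.77 for Sgk1, 0.01 to 0.57 for Eaf2, -0.23 to 0.70 for Ell2, -0.37 to 0.30 for Fkbp5, -0.63 to -0.06 for Ndrg1 and -0.70 to 0.26 for Steap4. The intervals of Eaf2 and Ndrg1 lay to one side of 0, each opposite in sign to the change in WT, and neither gene passed the adjustment. In this comparison the 10 skeletal muscle markers were at 1.83–2.36 in αERKO-DES against 3.89–7.29 in αERKO-veh (7 of 10 called lower) and the 6 adipose markers at 1.02–2.27 against 2.50–5.98 (4 of 6 called lower). The 5 anterior prostate markers were at 7.88–8.72 against 9.62–10.52 (1 of 5 called lower), and 1 of 6 fibroblast and 1 of 5 endothelial markers were called lower. The part of these markers in the values of the 10 genes was not tested.

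The DES change differed between genotypes for 8 of the 10 genes, beside 56.4% of all tested genes. Of these, 5 had a lower value in WT, beside 26.9% of all tested genes, and 3 a higher value, beside 29.6%. Subtracting the log2 change of αERKO from that of WT gave -4.72 (SE 0.40) for Azgp1, -2.94 (SE 0.32) for Sgk1, -2.92 (SE 0.18) for Eaf2, -2.37 (SE 0.31) for Ell2 and -1.50 (SE 0.22) for Fkbp5 (-0.95 after rescaling without the 20 most abundant genes). It was 2.11 (SE 0.19) for Ndrg1 and 1.44 (SE 0.32) for Steap4. The limma adjusted p-values of these 7 genes ranged from 1.78e-08 to 0.000921. For Zbtb16 the difference was 0.68 (95% CI 0.27 to 1.09, limma adjusted p = 0.00519), made up of 0.20 in WT and -0.48 in αERKO, and the call was lost after quantile normalization (0.33), after correction for transcript length (0.40) and without αERKO-DES sample 1 (0.56), while the difference was 1.18 after rescaling. Tmprss2 (0.31, 95% CI -0.73 to 1.35) and Tsc22d3 (-0.24, 95% CI -0.50 to 0.01) were not called. Between the DES-treated groups, αERKO-DES was higher than WT-DES for 6 genes (Azgp1, Eaf2, Sgk1, Fkbp5, Ell2 and Zbtb16) and lower for 2 (Ndrg1 and Steap4), 8 of 10 beside 53.4% of all tested genes (23.7% higher and 29.6% lower). That comparison shares the WT-DES samples with the first. There Zbtb16 was just past the fold for a call (ratio 1.54), and it was not called after rescaling without the 20 most abundant genes or median-ratio scaling (log2 changes of 0.21 and 0.40, against 0.55), nor without WT-DES sample 3, αERKO-DES sample 2 or αERKO-DES sample 4. Cell type markers moved in these comparisons too. In αERKO-DES against WT-DES, 8 of 8 SV secretory, 5 of 6 epithelial, 4 of 5 anterior prostate and 4 of 5 smooth muscle markers were called higher, and 10 of 11 leukocyte, 6 of 6 fibroblast, 6 of 6 adipose, 5 of 5 endothelial and 3 of 4 basal epithelial markers lower. The DES change of the markers differed between genotypes for 8 of 8 SV secretory, 5 of 6 epithelial, 3 of 5 anterior prostate, 4 of 5 smooth muscle, 10 of 11 leukocyte, 6 of 6 fibroblast, 6 of 6 adipose, 5 of 5 endothelial, 3 of 4 basal epithelial and 6 of 10 skeletal muscle markers. The part of these shifts in the values of the 10 genes was not tested.

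Nr3c1, the glucocorticoid receptor, was at 7.92–11.9 FPKM in WT-veh against 25.7–29.9 in WT-DES, and at 12.96–18.5 in αERKO-veh against 9.00–14.3 in αERKO-DES, with no overlap between the WT groups (log2 change 1.34, limma adjusted p = 6.69e-07). The αERKO-veh samples also did not overlap WT-veh (log2 change 0.51, limma adjusted p = 0.0177), at a ratio of means of 1.47 that is under the fold for a call, and the difference was called under 6 of 20 alternatives. These are levels of RNA, and neither the receptor protein nor its activity was measured.

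After rescaling without the 20 most abundant genes, 3 of 15 receptors and chaperones of the steroid receptor pathway were called higher in WT-DES and 1 lower. Their median log2 change was then -0.05, against 0.38 over all tested genes. Without rescaling, 7 were called (46.7%, beside 52.7% of all tested genes), 3 higher and 4 lower, with a median of -0.47. The 3 that were called higher are receptors: Pgr, the progesterone receptor, rose from 0.685 to 9.88 FPKM (log2 change 2.64, limma adjusted p = 1.96e-08), and Nr3c1 and the mineralocorticoid receptor Nr3c2 also rose. The 4 called lower were chaperones or co-chaperones: Fkbp4, the close relative of Fkbp5 in receptor complexes, fell from 346 to 113 FPKM (log2 change -1.61, limma adjusted p = 7.65e-09, and -0.86 after quantile normalization), and Bag1, Ptges3 and Hsp90aa1 were also lower. Nr3c2, Bag1, Ptges3 and Hsp90aa1 were named after their values were seen.

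Of 68 other androgen-response genes that were tested, 41 were called in WT-DES (60.3%, beside 52.7% of all tested genes), 16 higher and 25 lower, with a median log2 change of -0.27. After rescaling without the 20 most abundant genes the split was 24 higher and 17 lower, with a median of 0.15, and this scaling moved the median of all tested genes from -0.01 to 0.38. Spdef, an ETS factor of secretory cells, fell from 48.9 to 5.10 FPKM (log2 change -3.17, limma adjusted p = 5.71e-08). Sord, sorbitol dehydrogenase, which makes fructose from sorbitol, fell from 177 to 40.2 FPKM (log2 change -2.17, limma adjusted p = 3.64e-07). Aldh1a3, which makes retinoic acid, rose from 4.72 to 43.9 FPKM (log2 change 2.94, limma adjusted p = 8.49e-09). In αERKO-veh 8 of the 68 genes were called (11.8%, beside 7.12% of all tested genes), 7 of them higher (4.50% of all tested genes). In αERKO-DES versus αERKO-veh 2 were called, both lower (2.94%, beside 1.49% of all tested genes called either way). One was Aldh1a3, which went from 5.92 to 2.07 FPKM (log2 change -1.15, limma adjusted p = 0.0341), the opposite direction to its change in WT. The other was Ncoa4 (-0.66, limma adjusted p = 0.0341), named after its values were seen. The part of the skeletal muscle and adipose markers called lower in that comparison (7 of 10 and 4 of 6) was not tested.

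Of 24 other glucocorticoid-response genes, 17 were called in WT-DES (70.8%, beside 52.7% of all tested genes), 12 higher and 5 lower, with a median log2 change of 0.43. The metallothioneins Mt2 and Mt1, which bind metal ions, fell from 475 to 89.6 FPKM (log2 change -2.64, limma adjusted p = 5.6e-06) and from 748 to 157 FPKM (-2.36, limma adjusted p = 7.62e-07, and -1.54 after quantile normalization). Pdk4, a kinase that limits glucose oxidation, rose from 3.69 to 15.4 FPKM (1.84, limma adjusted p = 0.000331). After rescaling without the 20 most abundant genes 17 were higher and 5 lower, with a median of 0.78 (0.38 over all tested genes). In αERKO-veh 1 of the 24 genes was called, higher (4.17%, beside 7.12% of all tested genes). In αERKO-DES versus αERKO-veh 2 were called, both lower (8.33%, beside 1.49% of all tested genes). One was Pdk4, which went from 7.30 to 1.36 FPKM (log2 change -1.64, limma adjusted p = 0.0365), the opposite direction to its change in WT, and the other was Angptl4 (-1.28, limma adjusted p = 0.0406), named after its values were seen. Skeletal muscle (7 of 10) and adipose markers (4 of 6) were called lower in the same comparison, and their part in these changes was not tested.

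Of 13 partners of Ell2 and Eaf2 in elongation complexes, 2 were called (15.4%, beside 52.7% of all tested genes), 1 higher and 1 lower, with a median log2 change of -0.10. After rescaling without the 20 most abundant genes 5 were called, all higher, with a median of 0.25, below the 0.38 over all tested genes. Mllt3, a subunit of the super elongation complex, rose from 5.04 to 9.92 FPKM (log2 change 0.86, limma adjusted p = 7.78e-07, and 0.55 after correction for transcript length). Supt5, a subunit of the pausing factor DSIF, fell from 79.6 to 48.1 FPKM (-0.71, limma adjusted p = 2.53e-08), a call that was lost under quantile normalization, rescaling and median-ratio scaling (log2 changes of -0.24, -0.28 and -0.57). Ell, the paralogue of Ell2, had a log2 change of -0.01 and Eaf1, the paralogue of Eaf2, of -0.34, and neither was called.

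Of 20 paralogues of the 10 genes that were tested, 9 were called in WT-DES (45.0%, beside 52.7% of all tested genes). Of these, 6 were higher and 3 lower, and the median log2 change of the list was 0.09. After rescaling 8 were higher and 1 lower, with a median of 0.45 (0.38 over all tested genes). Tmprss4 rose from 0.41 to 11.0 FPKM (log2 change 3.07, limma adjusted p = 1.03e-07, and 4.89 with a pseudocount of 0.1), beside no call for Tmprss2. Steap3 rose from 5.24 to 29.5 FPKM (2.30, limma adjusted p = 3.2e-09), as did Steap4. Fkbp4 fell, as did Fkbp5. Steap2 (1.14, limma adjusted p = 5.63e-06) and Ndrg2 (1.39, limma adjusted p = 0.000313) were also higher, as were Steap4 and Ndrg1. Against the direction of their relatives, Steap1 was lower (-0.62, limma adjusted p = 0.0261, with overlapping groups) and Sgk3 higher (0.68, limma adjusted p = 2.71e-06). In αERKO-DES versus αERKO-veh 2 of the 20 were called, both lower (beside 1.49% of all tested genes): Steap3 (-0.83, limma adjusted p = 0.0341) and Ndrg4 (-1.35, limma adjusted p = 0.042). Steap1, Steap2, Sgk3, Ndrg2 and Ndrg4 were named after their values were seen. Tsc22d1, Fkbp4, Eaf1, Ell and Ell3 each stand in more than 1 of these lists.

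**Figure D5:**
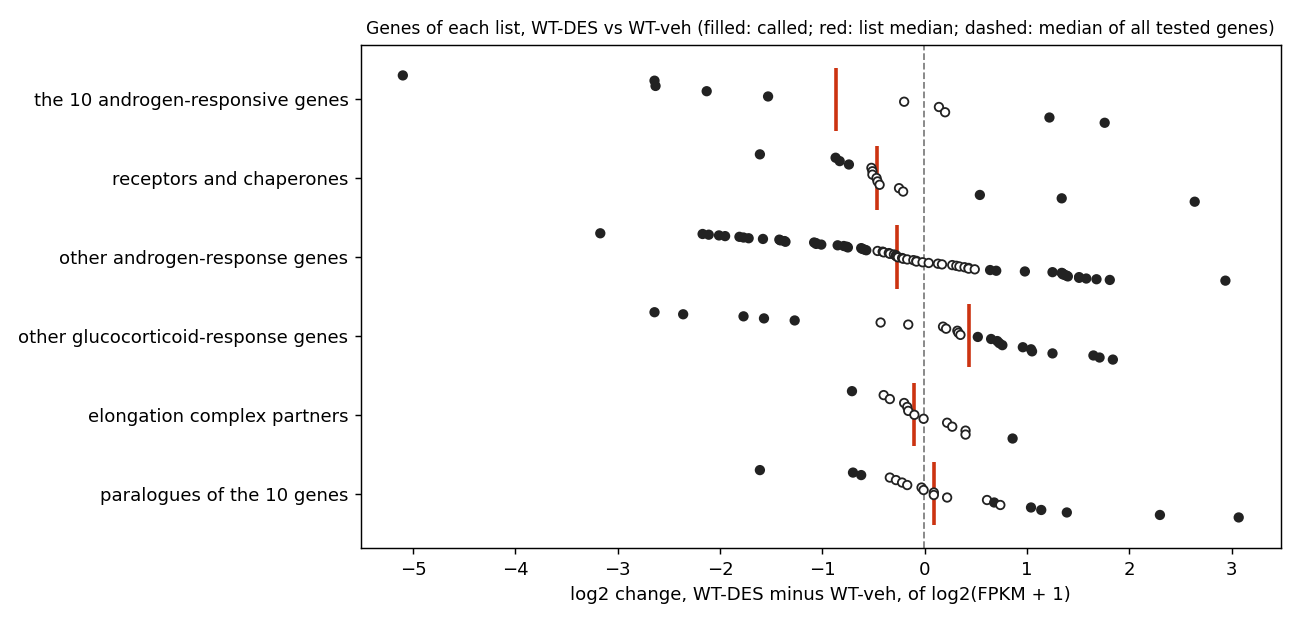
Log2 change in WT-DES versus WT-veh of each tested gene of 6 lists, with called genes filled, a red line at the list median and a dashed line at the median of all tested genes (-0.01). The 10 androgen-responsive genes have a median of -0.87 and span from -5.10 (Azgp1) to 1.76 (Ndrg1), and every list holds genes on both sides of the dashed line.

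The genes most like each of the 10 over the 16 samples were found by the smallest root mean square difference in log2(FPKM + 1), after subtracting each gene's mean. Ndrg1 was closest to Stom (0.0974), which went from 13 to 48.1 FPKM in WT-DES, and Tsc22d3 to Clta (0.0639), a gene with little change in any group. Sgk1 was closest to Tpd52l1 (0.14) and Aass (0.187), Eaf2 to Gmppb (0.132) and Nxnl2 (0.173), and Ell2, among genes with a symbol, to Fut8 (0.154). Tpd52l1 went from 198 to 30.9 FPKM, Gmppb from 97.2 to 13.9 and Fut8 from 113 to 23.3. Fkbp5 was closest to Ctns (0.26), at 54.2 FPKM in WT-veh, 17.4 in WT-DES and 74.4–78.2 in αERKO. Zbtb16 was closest to Aff1 (0.19), at 15.5 FPKM in WT-veh and 31.2 in αERKO-veh, and Steap4 to Rtn4rl2 (0.177) and Emp1 (0.204). Azgp1 had the largest distances to its nearest genes, Gsdma (0.518) and Dnase2b (0.519). The measure is not scaled to the size of a change, and Azgp1 changed most of the 10 genes. Gsdma went from 137 to 3.65 FPKM in WT-DES and Dnase2b from 445 to 12.1. Tmprss2 was nearest to Tmem64 (0.172). This likeness is a description over samples that share their groups and was not tested.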

How the data were processed

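Gene expression was measured by RNA-seq of SV from 16 samples in 4 groups. The deposited values are FPKM per gene, which the authors computed with Cufflinks 2.0.2 after alignment to mm10 (GRCm38) with TopHat 2.0.4, and the gene annotation of the table and any further scaling between libraries are not given in the sources used here. Depth per sample is unknown, so precision rests on the 4 samples per group. The test was limma 3.58.1 (R 4.3.3) on log2(FPKM + 1), fitted to all 16 samples with a mean per group and a trend in the variance. Of 31274 genes, the 15988 whose mean exceeded 1 FPKM in a group were tested, and p-values were adjusted over them by Benjamini-Hochberg. The procedure was tried on simulated data of 15012 genes, where 87.5% of genes simulated with a log2 change of 1 in WT-DES versus WT-veh were called. Only 200 genes were changed there, with normal noise and none drawn from the lowest genes, whereas 52.7% of genes were called in the real comparison. The 87.5% is therefore a check of the procedure and not the power of the real test. The thresholds of a call are those of the study, and the differences between genotypes needed an adjusted p of at most 0.05 and 1.5-fold. The members and gene lists were chosen with earlier results of these data known, and the lists come from general knowledge. All 10 members, Nr3c1 and Esr1 were named, and some further genes that the rule names are not reported here and were left out of the lists. From each other list the text names up to 3 genes with the largest absolute change among those called in WT-DES with a mean of at least 5 FPKM in 1 group and no overlap. Gene coordinates and lengths are from GENCODE M21 and promoters from RefSeq GRCm38.p6. Alternatives were another pseudocount (0.1), no minimum or a minimum of 5 FPKM, no variance trend, a fit of only the groups compared, weights for samples, a replicate block, quantile normalization, rescaling without the 20 most abundant genes, median-ratio scaling, correction for transcript length, a stricter adjusted p of 0.01, and each sample left out in turn. Those for genes outside the members were added after their values were seen.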

Additional observations from a re-analysis of the deposited data

Results flagged for a closer look

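The gap of a single sample to its nearest neighbour, divided by the range of its group, was above Dixon's critical value at the 95% level for 2 of 44 values tested, and chance alone gives about 1 in 20. It was 0.936 for Tmprss2 in WT-DES sample 1 (187 FPKM, the others 41.1–50.5) and 0.877 for Tmprss2 in WT-veh sample 1 (67.1 FPKM, the others 56.3–57.7). WT-DES sample 1 was also the highest of its group for Azgp1 (4.45 FPKM), Fkbp5 (20.3), Eaf2 (1.93), Ndrg1 (67.1) and Tsc22d3 (62.5). It was the lowest for Sgk1 (50.6) and Ell2 (9.48). Its smooth muscle, SV secretory, epithelial (7.37), basal epithelial (6.63), anterior prostate (6.52) and skeletal muscle (2.69) marker levels were the highest of its group. Its leukocyte (3.35) and endothelial (4.24) marker levels were the lowest.

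The DES change differed between WT and αERKO, by a test of the difference itself, for Azgp1 (-4.72), Sgk1 (-2.94), Eaf2 (-2.92), Ell2 (-2.37), Fkbp5 (-1.50), Ndrg1 (2.11), Steap4 (1.44) and Zbtb16 (0.68), each as the change in WT less the change in αERKO on the log2 scale. Such a difference was called for 56.4% of all tested genes.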

How the results depend on the processing

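Depth is unknown, which limits statements on low genes, and WT-DES values may come from pools. Of the 10 genes, 7 or 8 were called in WT-DES versus WT-veh, 2 or 3 in αERKO-veh versus WT-veh, 0 in αERKO-DES versus αERKO-veh, 7 or 8 in αERKO-DES versus WT-DES and 7 or 8 between genotypes under every alternative, and 1 to 3 in αERKO-DES versus WT-veh, with 1 at an adjusted p of at most 0.01. Receptors and chaperones gave 4 calls in place of 7 after rescaling without the 20 most abundant genes, and 7 to 10 with samples left out, and elongation partners gave 5 in place of 2 after this rescaling and 1 after median-ratio scaling. Rescaling raised the share of higher calls in WT-DES versus WT-veh to 79.2% and median-ratio scaling to 63.7%, from 54.7%, with medians of all genes of 0.38 and 0.12. Over all tested genes, calls in αERKO-veh versus WT-veh (1139) ranged from 402 to 1685, in αERKO-DES versus αERKO-veh (239) from 2 to 1119 and in αERKO-DES versus WT-veh (508) from 156 to 1002, each lowest at an adjusted p of at most 0.01 and highest with sample weights. Signs turned for changes that were not called, and the cause was not tested. After quantile normalization this held for Tsc22d3 (WT-DES 0.32, αERKO-DES versus αERKO-veh -0.08, between genotypes 0.39), Zbtb16 (WT-DES -0.11), Tmprss2 (αERKO-DES versus WT-DES -0.42), Sgk1 (αERKO-veh 0.08) and Ell2 (αERKO-veh 0.01). After rescaling it held for Tsc22d3 (0.23, -0.08 and 0.31 in the same order), Tmprss2 (-0.34) and Ell2 (0.03), and after median-ratio scaling for Tmprss2 (-0.12) and Tsc22d3 (-0.01). Sample weights turned Tmprss2 (WT-DES -0.25, between genotypes -0.19), Azgp1 (αERKO-DES versus αERKO-veh 0.07), Fkbp5 (same comparison 0.04), Eaf2 (αERKO-veh -0.05) and Ell2 (αERKO-DES versus WT-veh -0.01). Correction for length turned Tmprss2 (WT-DES -0.11, between genotypes -0.02) and Zbtb16 (WT-DES -0.01). With samples left out, Tmprss2 ranged from -0.35 to 0.37 in WT-DES, from -0.18 to 0.54 in αERKO-DES versus WT-DES and from -0.19 to 0.53 between genotypes, Eaf2 from -0.02 to 0.13 in αERKO-veh, Fkbp5 from -0.09 to 0.03 and Tsc22d3 from -0.01 to 0.09 in αERKO-DES versus αERKO-veh, and Steap4 from -0.07 to 0.09 in αERKO-DES versus WT-veh. The replicate numbers did not pair the samples (correlations of deviations from -0.21 to 0.28, and 3 of 16 samples closest to their own number), and with a replicate block the counts for the 10 genes were again 7 in WT-DES versus WT-veh, 3 in αERKO-veh versus WT-veh, 0 in αERKO-DES versus αERKO-veh, 8 in αERKO-DES versus WT-DES, 8 between genotypes and 2 in αERKO-DES versus WT-veh.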
